A study of Mus musculus with 8 samples.

Results

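The COUP-TF nuclear receptors are a small family of transcription factors with 3 mammalian members, Nr2f1 (COUP-TFI), Nr2f2 (COUP-TFII, also called ARP-1) and Nr2f6 (EAR2). Their RNA levels were read on arrays from the pSHF (posterior second heart field) of mouse embryos at E9.5. This is the mesenchyme behind the heart whose cells enter the atria and build the atrial septum. Members were taken by name: every spot other than a control spot was kept whose gene name in the scanner files was Nr2f1, Nr2f2 or Nr2f6. This gave 3 of 27827 gene names and 5 of 41174 probes on the array. Nr2f2 had 3 probes, and Nr2f1 and Nr2f6 had 1 probe each. The family was chosen from the difference between mutant and wild-type samples on these same arrays, so its differences are given below as a description, with no test.

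The Tbx5 mutant line was kept on a mixed genetic background, and mothers had received gonadotropins before mating. Heterozygous embryos, with 1 mutant and 1 normal Tbx5 allele (Tbx5-/+), gave 4 samples, and wild-type embryos (Tbx5 WT) gave the other 4. Each sample was a pool of RNA from microdissected pSHF, hybridized to 1 one-colour Agilent array, and the number of embryos in a pool was not given. The sample labels speak of embryos 1, 5, 6 and 7 in each genotype, whereas the design text calls each sample a pool, so what a single sample holds is not settled. Samples are called pools here and named by genotype and label number. Nothing in the labels says whether the pools came from separate litters, so p-values measure only the spread between these pools. The labels do not say which part of Tbx5 the mutant allele lacks.

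COUP-TFs have the build of hormone receptors but were found without a known ligand. They bind repeats of the nuclear receptor core motif as dimers with each other or with retinoid X receptors, and in many settings they repress transcription through corepressors such as Ncor1. Nr2f2 is best known in the embryo for holding veins to a venous identity and for the growth of the atria and sinus venosus. Nr2f1 is known for the patterning of the cerebral cortex and for work in neural crest and inner ear, and Nr2f6 is a less studied member that is expressed in many tissues.

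The probes were 60 bases long and are shown by their middle 30 bases, 5′ to 3′ and in lower case throughout, because the results below turn on which stretch of Nr2f2 was measured. Positions are given on mm9, as in the scanner files, and all 5 probes lie on the minus strand. The Nr2f2 probe nearest the 3′ end (A_52_P620399) lies at chr7:77498375-77498434. The Nr2f2 probe called the middle probe here (A_51_P147684) lies at chr7:77499447-77499506, 1072 bases upstream, and was designed on a transcript record named ARP-1. The Nr2f2 probe called the upstream probe (A_52_P155713) lies at chr7:77510625-77510684, 12250 bases upstream of the first, and was designed on a RIKEN cDNA whose name RefSeq lists as a synonym of Nr2f2. The Nr2f6 probe (A_51_P184353) lies at chr8:73898098-73898157 and the Nr2f1 probe (A_52_P275700) at chr13:78328489-78328548. Whether each position is exonic was not analysed here, because the annotation at hand was on another build.
Nr2f2 3′-most: ttataataactgaactgtttggtcgagtct
Nr2f2 middle: gactggtttgtttgcttaatttccttctgt
Nr2f2 upstream: aaactcatttccttccatagaactgactga
Nr2f6: gaaaggccactgcagctaggcaggagtact
Nr2f1: agtgtttattttcattttttgtaaaattta
GC content over the whole probe was 30% for both the 3′-most and the middle Nr2f2 probe, 38.3% for the upstream Nr2f2 probe, 55.0% for Nr2f6 and 21.7% for Nr2f1.

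Signals below are log2 values after variance stabilization (VSN), a scaling that puts the arrays on a common scale. A probe was tested when either genotype had it marked well above background by the scanner software on its full set of 4 arrays, which kept 20031 probes. The share of spots well above background was 45% to 52.8% on Tbx5-/+ arrays and 50.9% to 63.6% on Tbx5 WT arrays. Along the first principal component, with 56.9% of the variance, Tbx5-/+ 1 (score -37.2) lay among the Tbx5 WT arrays (-52.4 to -10.0) while Tbx5-/+ 5, 6 and 7 scored 26.1, 112 and 48.7. Tbx5 checked the labels: with its probe A_52_P523712 the 4 Tbx5-/+ arrays read 9.01, 9.73, 9.16 and 8.62 and the Tbx5 WT arrays 11.47, 11.56, 10.42 and 11.54, 4.34-fold lower with no overlap. Its other probe, A_51_P469338, differed by -0.15 (SE 0.36), and whether either probe lies in the part lost from the mutant allele is not known here. With limma and Benjamini-Hochberg adjustment, 0 of the 20031 probes passed an adjusted p of 0.05 (0%), the smallest adjusted p was 0.0920, and 4388 probes (21.9%) had an unadjusted p below 0.05. The median of all differences was -0.19 on the VSN scale, 0.0997 after scaling to the 75th percentile, -0.016 after quantile normalization and 0.13 after centring each array, so differences are also given relative to the VSN median.

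Of the 5 COUP-TF probes, 4 passed the filter on dim signals. In Tbx5-/+, 3 of these had a lower mean, whatever its size, and 1 a higher mean; among all tested probes 65.4% were lower and 34.6% higher. The groups did not overlap for 1 member probe, the middle probe of Nr2f2, which was lower on every Tbx5-/+ array. Such a lack of overlap in that direction was found for 8.99% of probes tested, and since the family was picked on this contrast nothing is read from the comparison.

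The middle probe of Nr2f2 read 13.55, 13.62, 13.12 and 13.90 in Tbx5 WT 1, 5, 6 and 7. In Tbx5-/+ 1, 5, 6 and 7 it read 12.25, 11.84, 11.18 and 11.50. Every Tbx5-/+ array was thus below every Tbx5 WT array, and Tbx5-/+ 1, the array closest to wild-type over the whole array, was also the closest for this probe. Group means were 13.55 ± 0.32 (SD, n = 4) in Tbx5 WT and 11.69 ± 0.46 in Tbx5-/+, a difference of -1.86 (SE 0.28), or 3.62-fold lower. Relative to the median of all probes the difference was -1.67, and 124 of the 20031 probes had one at least as low. In bulk tissue, fewer cells that express a gene and less RNA in each cell cannot be told apart.

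Before any scaling between arrays, the processed signal of the middle Nr2f2 probe was also lower on every Tbx5-/+ array than on every Tbx5 WT array. It was 17286, 17261, 10817 and 20000 intensity units in Tbx5 WT 1, 5, 6 and 7 and 6443, 2734, 1138 and 1944 units in the Tbx5-/+ pools of the same numbers. On the VSN scale, to which the differences in the rest of this paragraph also belong, Tbx5-/+ was lower in each of the 4 same-numbered pairs (-1.31, -1.79, -1.94 and -2.39). Pools 1 and 5 were labelled array 1 and pools 6 and 7 array 2, which the scanner headers also give as separate slides and scans. Within array label 1 the difference was -1.55 and within array label 2 it was -2.17.

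The 3′-most probe of Nr2f2 gave another picture of the same gene. It read 14.73, 14.63, 15.05 and 14.83 in Tbx5 WT 1, 5, 6 and 7, and 13.61, 15.67, 16.55 and 15.58 in the Tbx5-/+ pools. Tbx5-/+ 5, 6 and 7 were above every Tbx5 WT array, whereas Tbx5-/+ 1 was below every one of them. The means were 14.81 ± 0.18 (SD, n = 4) in Tbx5 WT and 15.35 ± 1.24 in Tbx5-/+. Relative to the median of all probes they differed by 0.74. The difference itself was 0.55 (SE 0.63), smaller than the spread within Tbx5-/+. It was 1.13 without Tbx5-/+ 1, -0.034 within array label 1, which holds that pool, and 1.12 within array label 2. Without Tbx5-/+ 6, the highest pool, it was 0.15. The direction at this probe therefore rested on the pools taken: it was lower in 1 same-numbered pair (-1.11) and higher in 3 (1.05, 1.5 and 0.75).

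On the unscaled intensity scale the 3′-most probe was 38380, 34326, 40257 and 38816 units in Tbx5 WT 1, 5, 6 and 7. The Tbx5-/+ pools gave 16711, 38962, 46666 and 33120 units. Before scaling, then, only Tbx5-/+ 6 exceeded every Tbx5 WT array, and Tbx5-/+ 1 and 7 were below all of them. Tbx5-/+ 1 also had the lowest summed signal of 8 pSHF mesenchyme markers, 13.9 against 15.7 to 15.9 in Tbx5-/+ 5, 6 and 7 and 15.0 to 15.8 in Tbx5 WT. It was the lowest of the 8 arrays for endothelium (14.0), cardiomyocyte (17.7), primitive erythrocyte (16.7) and liver bud (12.5) markers too, but not for foregut, neural tube or somite markers. The part of that difference in tissue markers in the low Nr2f2 reading of this pool was not tested.

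The upstream probe of Nr2f2 read 9.41, 9.83, 9.87 and 10.35 in Tbx5 WT 1, 5, 6 and 7. In the Tbx5-/+ pools it read 8.12, 9.21, 9.92 and 8.98. Tbx5-/+ 1, 5 and 7 were below every Tbx5 WT array, but Tbx5-/+ 6 lay inside the wild-type range. The means of 9.86 ± 0.38 (SD, n = 4) and 9.06 ± 0.74 differed by -0.81 (SE 0.42), or 1.75-fold lower in Tbx5-/+. Relative to the median of all probes the difference was -0.61. Of the same-numbered pairs, 3 were lower (-1.29, -0.62 and -1.37) and that of number 6 was 0.058 higher.

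**Figure D1:**
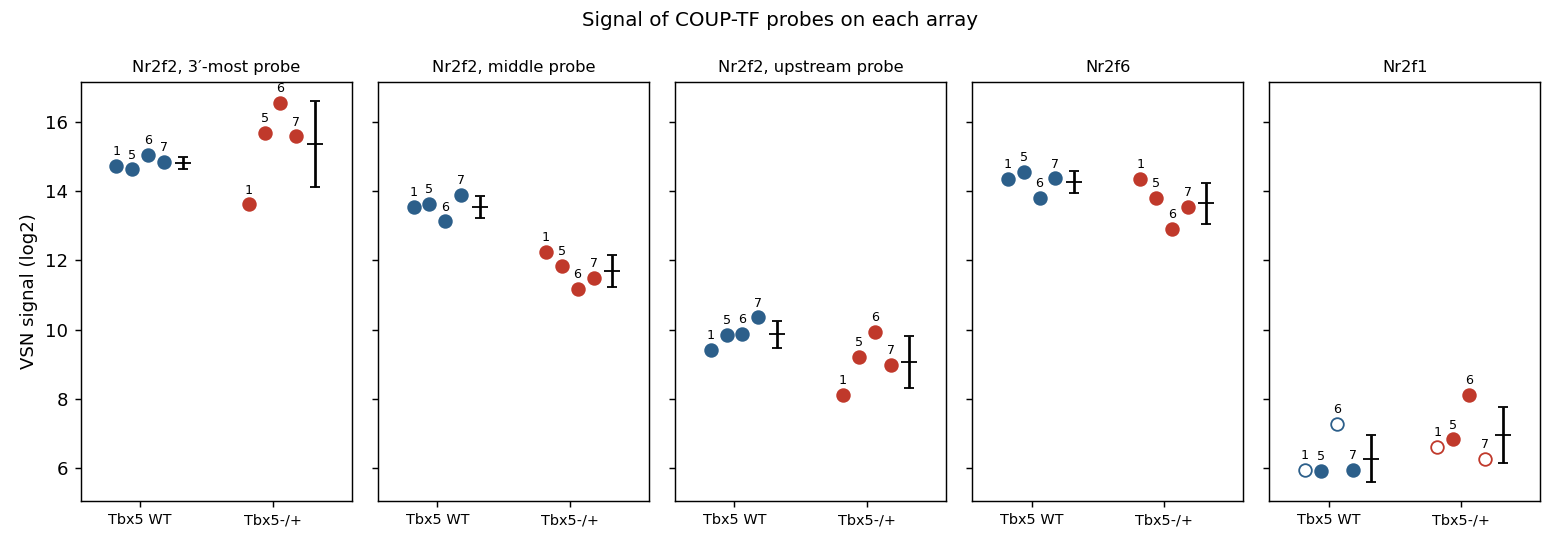
VSN signal (log2) of the 5 COUP-TF probes on each array, with Tbx5 WT in blue, Tbx5-/+ in red, the pool number above each point and the mean ± SD (n = 4) beside it; open points were not well above background. The groups are apart for the middle Nr2f2 probe, with Tbx5 WT from 13.12 to 13.90 and Tbx5-/+ from 11.18 to 12.25, and overlap for the other 4 probes; heights of different probes are not comparable.

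Nr2f6 was read by a bright probe. Its signal was 14.34, 14.56, 13.79 and 14.36 in Tbx5 WT 1, 5, 6 and 7 and 14.35, 13.80, 12.92 and 13.54 in the Tbx5-/+ pools. Tbx5-/+ 1 matched its wild-type partner (pair difference 0.0053), while pairs 5, 6 and 7 differed by -0.76, -0.88 and -0.82. Group means were 14.26 ± 0.33 (SD, n = 4) and 13.65 ± 0.59, a difference of -0.61 (SE 0.34), or 1.53-fold lower in Tbx5-/+, and -0.42 relative to the median of all probes. The groups overlapped, with 2 Tbx5-/+ arrays below every Tbx5 WT array, and without Tbx5-/+ 1 the difference was -0.84.

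Nr2f1 was near the limit of the arrays. Its probe was well above background on 2 of 4 arrays in each genotype, Tbx5 WT 5 and 7 and Tbx5-/+ 5 and 6, so it did not pass the filter. The values were 5.94, 5.92, 7.28 and 5.94 in Tbx5 WT 1, 5, 6 and 7 and 6.61, 6.82, 8.11 and 6.26 in the Tbx5-/+ pools. Tbx5 WT 6 was the highest wild-type array although its spot was not marked well above background, and the groups overlapped. Means were 6.27 ± 0.67 (SD, n = 4) and 6.95 ± 0.81, a difference of 0.68 (SE 0.53), or 0.87 relative to the median of all tested probes. All 4 same-numbered pairs were higher in Tbx5-/+ (0.67, 0.90, 0.83 and 0.31). On the processed intensity scale the Tbx5-/+ pools were not all higher: the pairs read 29.4 and 14.6 units (Tbx5 WT 1 and Tbx5-/+ 1), 45.4 and 60.4 (number 5), 62.8 and 47.7 (number 6) and 44.4 and 31.2 (number 7). No direction is given for Nr2f1.

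The 3 probes of Nr2f2 differed from each other more than probes of a gene usually did on these arrays. Their differences between genotypes, -1.86, 0.55 and -0.81, spanned 2.40 on the log2 scale. Among 4674 genes with several tested probes, Nr2f2 included, the median span was 0.404, and 19 genes (0.407%) had a span of 2.40 or more. Among the 915 genes with 3 tested probes, 11 (1.20%) did. These shares are a description, since Nr2f2 was picked with its values in view.

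A difference between probes within 1 array does not change when a whole array is scaled up or down on the log scale. The middle minus the 3′-most probe of Nr2f2 was -1.17, -1.0, -1.92 and -0.94 in Tbx5 WT 1, 5, 6 and 7. It was -1.37, -3.84, -5.36 and -4.08 in the Tbx5-/+ pools, a change of -2.40 (SE 0.87). Tbx5-/+ 1 lay inside the wild-type range, and the other 3 Tbx5-/+ pools were well below it.

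The upstream minus the 3′-most probe was -5.32, -4.79, -5.18 and -4.48 in Tbx5 WT and -5.49, -6.46, -6.62 and -6.60 in Tbx5-/+, a change of -1.35 (SE 0.33). All 4 Tbx5-/+ arrays were below all 4 Tbx5 WT arrays for this pair of Nr2f2 probes, though Tbx5-/+ 1 (-5.49) stood close to Tbx5 WT 1 (-5.32). The upstream minus the middle probe was -4.14, -3.79, -3.26 and -3.55 in Tbx5 WT and -4.12, -2.62, -1.26 and -2.52 in Tbx5-/+, a change of 1.05 (SE 0.61), with Tbx5-/+ 1 again within the wild-type values; this change was 1.55 without Tbx5-/+ 1 and 0.59 without Tbx5-/+ 6. The order of the probes along the locus was thus not the order of their differences: the middle probe was the lowest in Tbx5-/+ and the 3′-most probe the highest.

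A measure of the balance between upstream and downstream probes moved with these Nr2f2 differences. For each array, the gap between upstream and downstream probes was taken as the median, over 4637 other genes with several probes, of the upstream minus the downstream signal, each probe first set against its mean over the 8 arrays. A lower gap means relatively less signal toward the 5′ end. RNA quality itself was not measured here, and its part in the gap was not tested. It was 0.209, 0.088, 0.015 and 0.091 in Tbx5 WT 1, 5, 6 and 7, and 0.173, -0.115, -0.279 and -0.183 in the Tbx5-/+ pools. Tbx5-/+ 1 had a gap like wild-type arrays, and Tbx5-/+ 5, 6 and 7 were below them all, in the same order as their middle minus 3′-most differences. Over the 8 arrays the Pearson r of the gap was 0.952 with middle minus 3′-most, 0.800 with upstream minus 3′-most and -0.975 with upstream minus middle. For single probes r was 0.916 for Nr2f6 and -0.662 for Nr2f1. Among Nr2f2 probes it was -0.901 for the 3′-most, 0.800 for the middle and -0.159 for the upstream probe. The gap goes with genotype here, so r cannot separate them.

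With the gap as a covariate the middle Nr2f2 probe differed by -1.42, the upstream probe by -1.5, the 3′-most probe by -0.57, Nr2f6 by -0.050 and Nr2f1 by 0.14. In this fit the 3 probes of Nr2f2 were all lower in Tbx5-/+ and Nr2f6 was nearly level. With the gap and the pool number together, a setting added after seeing the data that leaves few degrees of freedom, the 3 Nr2f2 probes differed by -1.19 (middle), -1.39 (upstream) and -1.30 (3′-most), the widest gap among them being -0.20 (upstream minus middle), and Nr2f6 by 0.080. The gap is tied to genotype, since only Tbx5-/+ arrays had one below 0. The shares of the gap and of genotype in these differences cannot be told apart with these arrays.

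**Figure D2:**
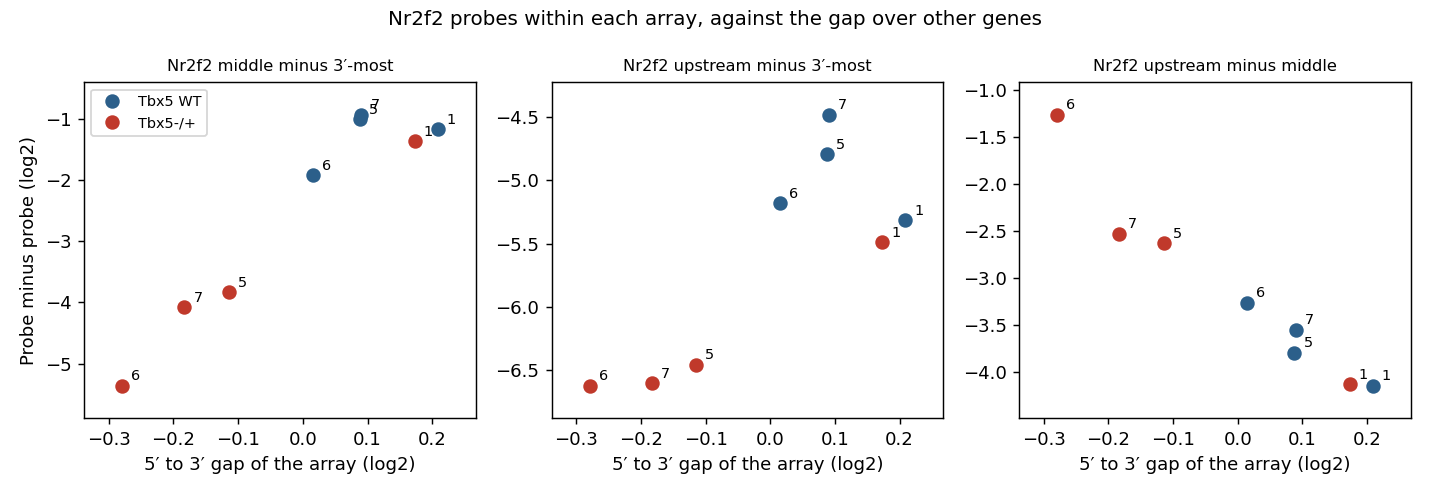
Differences between Nr2f2 probes within each array (log2, vertical axes) against the gap between upstream and downstream probes of other genes on that array (log2, horizontal axes), with Tbx5 WT in blue, Tbx5-/+ in red and pool numbers beside the points. Tbx5-/+ 1, with a gap of 0.173, sits nearest to the Tbx5 WT arrays in all panels, and Tbx5-/+ 5, 6 and 7, with gaps of -0.115, -0.279 and -0.183, sit apart from them.

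Under the 4 other scalings the direction of each tested member probe was kept, but the centred and the deposited values are themselves VSN values. Nr2f1 was higher in each scaling that held it, though no direction is given for it. The middle Nr2f2 probe ranged from -1.88 to -1.5, the upstream probe from -0.82 to -0.45, the 3′-most probe from 0.34 to 0.91, Nr2f6 from -0.63 to -0.25 and Nr2f1, in the scalings that hold it, from 0.50 to 1.00. Leaving out 1 array at a time, the middle probe ranged from -2.04 to -1.69. The upstream probe moved most without Tbx5-/+ 1 (-0.49), Nr2f6 without Tbx5-/+ 6 (-0.37), and Nr2f1 without Tbx5-/+ 6 (0.29) or Tbx5 WT 6 (1.02).

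**Figure D3:**
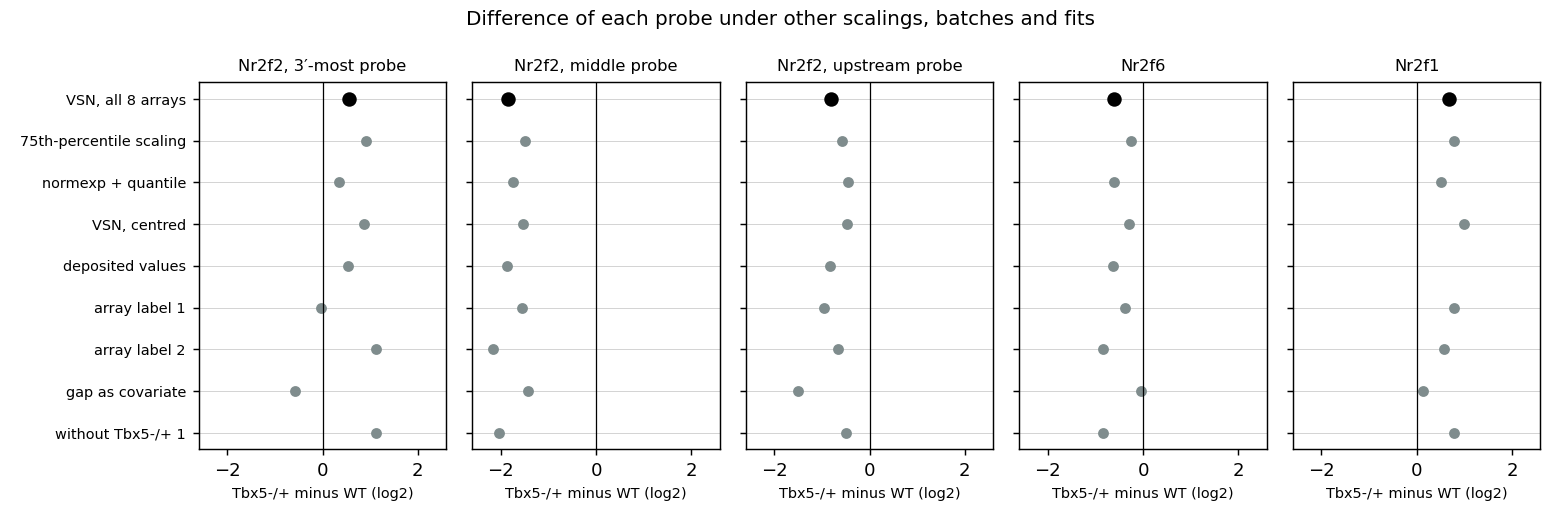
Difference between Tbx5-/+ and Tbx5 WT (log2, horizontal axes) of each COUP-TF probe under the VSN scaling (black) and under other scalings, within each array label, with the gap as a covariate and without Tbx5-/+ 1 (grey); the deposited values do not hold Nr2f1. The middle Nr2f2 probe lies between -2.17 and -1.42 in every setting drawn, while the 3′-most probe crosses 0 within array label 1 (-0.034) and with the gap as a covariate (-0.57).

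Other tissues in the dissection could carry COUP-TF RNA, so marker sums were set beside these results. Endothelium, whose veins use Nr2f2, had all 8 of its markers well above background on all 8 arrays and a summed signal of 14.0 to 14.6 in Tbx5-/+ and 14.3 to 14.5 in Tbx5 WT. Foregut endoderm also had 8 of 8 markers well above background throughout, with sums of 16.6 to 17.0 and 16.4 to 17.5, as did cardiomyocytes, with 17.7 to 19 and 18.2 to 18.7. Neural tube, where Nr2f1 and Nr2f2 are both used, had 3 of 8 markers well above background on all arrays, Sox1 on none, and sums of 11.5 to 11.9 and 10.3 to 12.9. Somite markers summed to 12.4 to 14.0 and 12.1 to 14.1, with Myf5 on no array and 4 of 7 on all. Primitive erythrocyte markers (6 of 7 on all arrays) summed to 16.7 to 19.5 and 16.7 to 18.9, and liver bud markers (2 of 7 on all arrays) to 12.5 to 17.0 and 14.1 to 16.5. Of the 8 pSHF markers 5 were well above background on every array, and the sums were 13.9 to 15.9 and 15.0 to 15.8. The summed signals of the genotypes overlapped for all 8 marker lists, but a sum follows its brightest markers.

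Marker by marker, 0 probes of these lists passed with limma, yet some were lower in Tbx5-/+. Of 10 pSHF probes 5 had an unadjusted p below 0.05, all lower, and the median was -0.80. The 3 without overlap were 1 probe of Tbx5 itself, Foxf1a (-1.59) and Gata4, a cardiac zinc finger factor (-1.37). Gata4 was well above background on only 2 of 4 Tbx5-/+ arrays and Foxf1a on 3. Isl1 (0.35), Wnt2 (0.060) and Aldh1a2 (0.021), by contrast, were level or higher, and the other Tbx5 probe differed by -0.15. Of 10 endothelium probes 3 had an unadjusted p below 0.05, all lower, 3 had no overlap and the median was -0.45. Kdr, the main VEGF receptor, differed by -1.12, the receptor Tie1 by -0.95 and Tek by -0.42 at 1 of its probes, all without overlap, whereas Emcn differed by 0.21 and Icam2 by 0.24. Medians were -0.23 for foregut endoderm, -0.12 for cardiomyocyte (2 of 15 probes lower without overlap), -0.93 for liver bud (1 of 5 probes lower at an unadjusted p below 0.05), 0.32 for neural tube, 0.27 for erythrocyte and 0.097 for somite markers. The part of these markers in the COUP-TF differences was not tested.

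The genes around the COUP-TFs were followed in 6 lists of 71 genes in all, of which 63 were tested with 92 probes. With limma, adjusted over all 20031 probes, 0 of the 63 genes passed (0% of all probes passed). At an unadjusted p below 0.05, 32 of the 92 probes (34.8%) were lower in Tbx5-/+ and 1 (1.09%) was higher, where 18.6% of all probes were lower and 3.35% higher. The groups did not overlap for 15 probes in the lower direction (16.3%, against 8.99% of all probes) and for 1 in the higher direction (0.744% of all probes). The median difference over the lists was -0.50, and over all probes it was -0.19. The gap between upstream and downstream probes and the placement of Tbx5-/+ 1 touch all of these genes as well, and their part in the counts was not tested.

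The replicate block changed the count. When the pool number was fitted as a block, which the pairing of same-numbered pools allows, 14 of the companion genes passed an adjusted p of 0.05, all lower in Tbx5-/+, while 2224 of all probes (11.1%) passed, 10.7% lower and 0.379% higher. Without Tbx5-/+ 1, 20 companion genes passed, 18 lower and 2 higher, with 3840 of all probes (19.2%; 12.2% lower and 7.01% higher), and 10 genes passed in both settings. Without Tbx5 WT 1, Tbx5 alone passed among them, with 212 of all probes (1.06%).

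The other receptors of the subfamily include the partners of COUP-TFs, the retinoid X receptors. Of 9 genes 6 were tested with 8 probes, the median difference was -0.80 and 4 probes had an unadjusted p below 0.05, all lower. Nr2c1, the orphan receptor TR2, was the only one with a tested probe without overlap. It read 9.33 ± 0.17 in Tbx5 WT and 8.68 ± 0.39 in Tbx5-/+ (SD, n = 4) with probe A_52_P589550. The difference of -0.64 (limma adjusted p = 0.187) did not pass. Rxrb passed with the block. Rxra, by contrast, differed by -0.053 (SE 0.27).

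COUP-TF cofactors were corepressors, coactivators and the partners Bcl11a, Zfpm1 and Zfpm2. Of 13 genes 12 were tested with 21 probes, with a median of -0.65, 9 probes lower at an unadjusted p below 0.05 and 5 lower without overlap. Zfpm2 (Fog2), a cofactor of Gata factors that is known to bind Nr2f2, was 8.73 ± 0.21 in Tbx5 WT and 7.63 ± 0.58 in Tbx5-/+, a difference of -1.10 (limma adjusted p = 0.114). Bcl11a, Ncor1 and Zfpm2 passed with the block. Probes of Ncor1, a nuclear receptor corepressor, disagreed as those of Nr2f2 did, with -1.88, -1.42, -1.20 and 0.47.

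In the retinoic acid pathway, which is known to raise COUP-TF levels in embryonic cells, 12 of 15 genes were tested with 15 probes. The median was -0.18, close to that of all probes, with 3 probes lower and 1 higher at an unadjusted p below 0.05. Crabp2, a carrier of retinoic acid, was 7.50 ± 0.10 in Tbx5 WT and 7.96 ± 0.31 in Tbx5-/+ (difference 0.46, limma adjusted p = 0.224). Its probe was the only tested probe of the lists that was higher without overlap. No probe of this list was lower without overlap, and Stra6, the retinol uptake receptor, passed with the block. Aldh1a2, the enzyme that makes retinoic acid in the pSHF, differed by 0.021 (SE 0.76) with an SD of 1.48 in Tbx5-/+ against 0.34 in Tbx5 WT, and without Tbx5-/+ 1 it passed with a difference of 0.76. In that setting Cyp26b1, which breaks retinoic acid down, and the binding protein Crabp1 passed in the lower direction (-0.92 and -0.61).

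Hedgehog readout genes were included because Nr2f2 is known to respond to Shh and because foregut endoderm sends Shh to the pSHF. All 11 genes were tested with 15 probes, with a median of -0.52, 4 probes lower at an unadjusted p below 0.05 and 2 without overlap. Foxf1a, a forkhead factor of mesenchyme next to gut, was 8.80 ± 0.51 in Tbx5 WT and 7.21 ± 0.62 in Tbx5-/+, a difference of -1.59 (limma adjusted p = 0.0955). Gli1, a direct readout of the pathway, was the other without overlap (-1.13). Foxf1a, Gli1 and Osr1 passed with the block.

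Vein and artery genes had the lowest median of the 6 lists, -0.83, over 19 probes of 13 tested genes out of 14, with 11 probes lower at an unadjusted p below 0.05 and 6 lower without overlap. Prox1, a factor of lymphatic endothelium that partners with Nr2f2, was 9.22 ± 0.10 in Tbx5 WT and 8.06 ± 0.38 in Tbx5-/+, a difference of -1.16 (limma adjusted p = 0.0920). Of the probes of Nrp1, an artery receptor that Nr2f2 is known to repress in veins, 2 were lower without overlap (-1.23 and -1.51) and 1 was level (0.089). Ephb4, a vein marker, was lower without overlap at both probes (-0.93 and -0.83). The probe at -0.93 was well above background on only 2 of 4 Tbx5-/+ arrays, so its difference is set against dim values. Ephb4, Nrp1, Prox1, Sox17 and Sox18 passed with the block, so artery genes (Sox17) and vein genes (Ephb4) were among them alike. Of the endothelial markers, Kdr (-1.12), Tie1 (-0.95) and 1 probe of Tek (-0.42) were lower without overlap beside these genes. Pecam1 and the other tested probe of Tek were lower with overlap. Emcn (0.21), Icam2 (0.24) and Esam (0.012) were level or higher, and the tested probes of Cdh5 differed by -0.49 and 0.14. The part of these markers in the list's median was not tested.

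Atrial and ventricular genes, whose balance Nr2f2 controls in heart muscle, were the only list with a positive median, 0.21, over 15 probes of 10 tested genes. Tbx5 itself was the only gene of this list with an unadjusted p below 0.05. The atrial light chains Myl7 and Myl4 differed by 0.61 (SE 0.36) and, for its 2 probes, by -0.0032 and 0.053. The ventricular heavy chain Myh7 differed by 0.89 and 0.72. In the other direction, the heavy chain Myh6 differed by -0.88 (SE 0.63) and -1.09 (SE 0.77), with overlap. Myl7 passed without Tbx5-/+ 1 and not in the other settings, and cardiomyocyte marker sums were lowest in that pool, at 17.7.

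**Figure D4:**
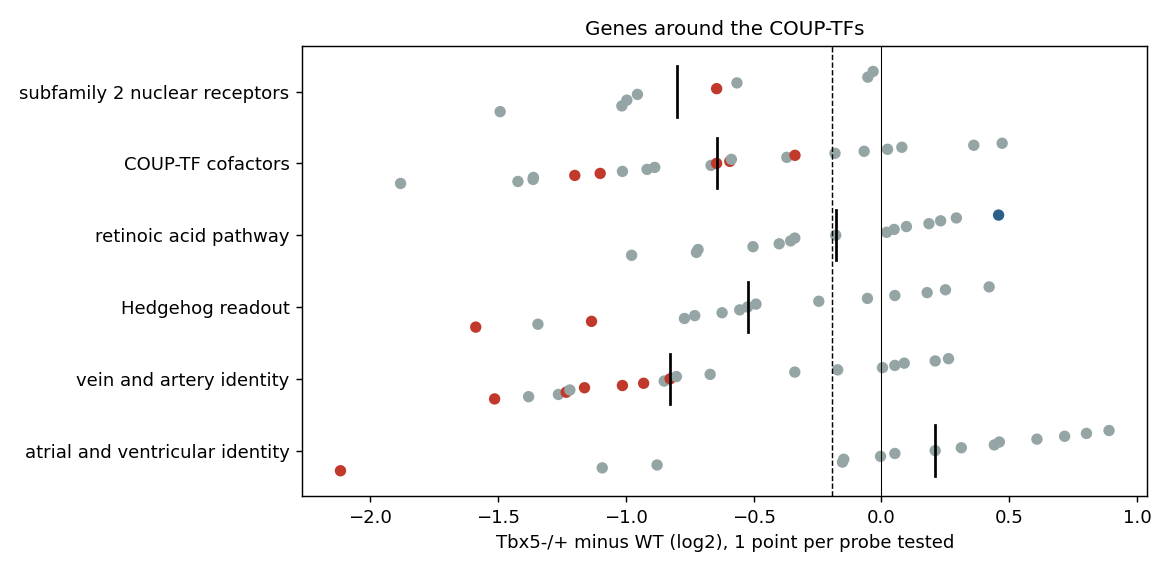
Difference between Tbx5-/+ and Tbx5 WT (log2) for every tested probe of the 6 lists of genes around the COUP-TFs, with red points lower without overlap, blue higher without overlap and grey overlapping; short black bars are list medians and the dashed line is the median of all probes (-0.19). Medians run from -0.83 for vein and artery genes to 0.21 for atrial and ventricular genes.

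Genes beside the COUP-TF loci were read in the same way. Taking the 3 protein-coding genes on each side, 15 of 18 were tested with 24 probes, and 0 passed with limma. At an unadjusted p below 0.05, 7 probes (29.2%) were lower and 1 was higher, against 18.6% and 3.35% of all probes, and the median was -0.29. The scanner files place 1 of these probes, of Chd2, on another chromosome; the other 23 had 7 lower (30.4%), 1 higher and a median of -0.38. Mctp1, Fam169b and Mctp2 were not tested.

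Beside Nr2f2, Igf1r, the receptor of insulin-like growth factor, was lower at all 4 probes (-0.93, -1.07, -0.58 and -1.23) and its limma adjusted p was between 0.105 and 0.205. The nearest tested gene, Arrdc4, had 1 probe at 1.0 (SE 0.42) and another at -0.16, so its probes disagreed in direction. Rgma differed by -0.38 and Chd2, a chromatin remodeller, by -0.20 at its probe on chromosome 7, while the probe of that name placed on chromosome 5 differed by 0.43 and is not beside Nr2f2. The median over the 8 probes beside Nr2f2 on chromosome 7 was -0.48.

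Beside Nr2f6, the 6 tested neighbours had a median of -0.47 over 7 probes. Ushbp1 was lower without overlap (-0.78), Abhd8 differed by -0.73, Ankle1 by -0.73, Ocel1 by -0.47, Myo9b by -0.38 and Use1 by -0.0064 and 0.12. Beside Nr2f1 the median was 0.0053 over 8 probes: Lysmd3 differed by -0.90 without overlap and by 0.021 at its other probe, Pou5f2 by -0.44, Arrdc3 by -0.18, 2210408I21Rik by 0.30 and Polr3g by -0.010, 0.18 and 0.28. Lysmd3, Igf1r and Ushbp1 passed with the replicate block (adjusted p 0.0346 to 0.0484), and without Tbx5-/+ 1 so did these 3, lower, together with 2210408I21Rik and Arrdc4, higher.

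Each COUP-TF probe that passed the filter had many probes that followed it over the 8 arrays. Array label and the gap between upstream and downstream probes vary over these arrays as well as genotype. For the middle Nr2f2 probe the most alike genes included Abcd4 and Lpgat1 (Pearson r = 0.997 and 0.993 over 8 arrays; 0.970 and 0.948 once group means were subtracted), and 1081 of 20017 probes had an r above 0.9. Abcd4 is a transporter used in cobalamin handling. For the 3′-most Nr2f2 probe the closest 3 were Tsn, Ppp3cc and Hipk2 (r = 0.995, 0.993 and 0.993; 0.995, 0.992 and 0.993 after subtraction), with 1306 probes above 0.9.

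The upstream Nr2f2 probe was followed most closely by Agtpbp1, Hic2 and Ppp1r3f (r = 0.992, 0.970 and 0.963; 0.994, 0.962 and 0.948 after subtraction), and only 32 probes had an r above 0.9 with it. Nr2f6 was followed by Klhl9, Ube2cbp and Cdca2 (r = 0.996, 0.995 and 0.994; 0.996, 0.993 and 0.994 after subtraction), with 2610 probes above 0.9. No gene named for 1 probe was named for another, so the 3 probes of Nr2f2 named different genes. Among the members themselves, over the same 8 arrays, the middle Nr2f2 probe had an r of 0.816 with Nr2f6 and -0.574 with the 3′-most probe of its own gene, and Nr2f6 had an r of -0.863 with that probe.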

How the data were processed

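Posterior second heart field RNA was measured on 8 one-colour (Cy3) Agilent whole mouse genome arrays, 4 Tbx5-/+ and 4 Tbx5 WT, grouped by the labels. Intensity values were deposited from Agilent Feature Extraction 10.5.1.1 per the file headers (mean signal, local background, and a signal processed within the array) and quality marks. The authors also deposited log2 values of 22405 probes, background-corrected and normalized by VSN; the study's methods describe a filter on signal quality, spread and annotation for other arrays and say that these were handled identically, and whether that filter gave this table was not settled. Its columns all belong to these samples.

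From the scanner files, local background was subtracted, 1115 outlier spots were left out of 43379 spots per array (0 were saturated), repeated spots of 245 probes were averaged, and VSN was programmed in R 4.3.3 (90% of probes kept in each of 7 iterations). Its values correlated with the deposited ones at r of at least 0.9999 on every array. Tested were the 20031 probes (48.6%; 13951 gene names) well above background on all 4 arrays of a genotype. Genotypes were compared by limma 3.58.1 (lmFit, eBayes, two-sided, Benjamini-Hochberg, threshold 0.05); the fit was checked on simulated data. The number of arrays limits the precision. COUP-TF probes that passed this filter were part of the fit, but no p-value is given for them or for differences between them. The members and lists were chosen with earlier results of these data known. Named genes were all member probes, Tbx5, per list the genes that passed or else the non-overlapping gene with the smallest p in each direction, all tested neighbours and the 3 most alike genes per probe, 1 of which is not reported here; other list genes named, and those that passed under a block or without an array, were chosen after their values were seen.

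Same-numbered pools of both genotypes deviated together (correlation of deviations from group means 0.438, 0.400, 0.593 and 0.137 for numbers 1, 5, 6 and 7), so the numbers were taken to pair the samples, from the data and the shared label number; Tbx5-/+ 7 deviated more closely with Tbx5 WT 6 (0.371) than with Tbx5 WT 7. The fit without the block was kept as the main one. Alternatives were 3 other scalings (75th percentile, normexp with offset 50 and quantile, centred VSN), the deposited values, the pool number or array label as a block, the gap as a covariate, other filters on dim probes and leaving out each array. Python 3.11.15, pandas 2.3.3 and matplotlib 3.10.9 were used for tables and figures.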

Additional observations from a re-analysis of the deposited data

Results flagged for a closer look

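Of the 16 groups of 4 values checked for a sample far from the others, 2 were flagged, and chance alone flags about 1 group in 20. Nr2f1 in Tbx5 WT had pool 6 at 7.28 against 5.92 to 5.94 in the other 3 pools, a gap of 0.985 of the range of the group; that spot was not well above background. For the upstream minus the 3′-most probe of Nr2f2, Tbx5-/+ 1 stood at -5.49 against -6.62 to -6.46 in the other Tbx5-/+ pools, a gap of 0.855 of the range. Tbx5-/+ 1 was also the pool nearest to Tbx5 WT on the leading principal component and in the gap between upstream and downstream probes (0.173), and its part in the flag was not tested.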

How the results depend on the processing

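Of the differences of member probes under other settings, 81 moved by less than the spread between replicates. Another 4 moved by more in the same direction and 4 reversed. For differences between Nr2f2 probes these counts were 45, 3 and 3. Both genotypes have the same pool numbers and array labels, so either one as a block alone returns the main difference. Such settings are among the unmoved ones by design. With the gap as a covariate the middle Nr2f2 probe was at -1.42, the upstream probe at -1.5, Nr2f6 at -0.050 and the 3′-most probe reversed to -0.57; middle minus 3′-most was at -0.85 and upstream minus middle reversed to -0.080. With the gap covariate and the replicate block together the middle probe was at -1.19, the 3′-most probe reversed to -1.30 and Nr2f6 to 0.080, middle minus 3′-most reversed to 0.11, upstream minus middle to -0.20, and upstream minus 3′-most was at -0.089. Within array label 1 the 3′-most probe reversed to -0.034, and with normexp and quantile normalization upstream minus 3′-most was at -0.79. The pairing by replicate block moved calls from 0 to 2224 probes, 14 companion genes and 3 neighbour genes. Leaving out 1 array gave 0 to 3840 probes, 0 to 20 companion genes and 0 to 5 neighbour genes, the highest counts without Tbx5-/+ 1; without Tbx5 WT 1 there were 212 probes and 1 companion gene. The cause of these moves was not tested. The other 43 counts of calls were 0. The median of all probes was -0.19 with VSN and 0.13 with centred values; low signal over background limits Nr2f1.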
